A study of Mus musculus with 6 samples.

Results

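Binding of NF-YA to genes of the zinc finger transcription factor families was examined in cultured MuSCs, the stem cells that reside in skeletal muscle and regenerate its fibres. The peaks were chosen by the symbol of the gene listed for them, which had to start with *Zbtb*, *Zkscan*, *Zscan* or with *Zfp* and a number. This gave 98 of the 9056 NF-YA peaks, and 98 of the 5146 peaks listed with a gene symbol, at 89 genes. The rule used no measured level. In CUT&RUN, an antibody guides a nuclease to its target in permeabilised cells and the released DNA is sequenced. The study comprised 6 libraries from wild-type C57BL/6 MuSCs that were activated and proliferating in culture, 3 made with an antibody against NF-YA and 3 with mouse IgG. Levels of the 3 NF-YA libraries are given, and the IgG libraries were not analysed here. All 3 libraries came from a single condition, so no treatment or genotype was compared. The study's reporting summary calls the NF-YA libraries biological replicates, and the labels do not say which animals or cultures they came from. The identity of the cells cannot be checked against expression markers in these data.

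Zinc finger proteins of the C2H2 type form the largest class of transcription factors in mammals, and each finger folds around a zinc ion and contacts a short run of bases. Many numbered Zfp proteins also carry a KRAB domain, which recruits the corepressor TRIM28 and is best known for the silencing of transposable elements. Their genes lie in clusters that grew by duplication. ZBTB proteins join the fingers to a BTB domain for dimerisation and corepressor binding, whereas ZSCAN and ZKSCAN proteins carry a SCAN domain, a dimerisation module. NF-Y is a trimer that binds the CCAAT box, a promoter element commonly found just upstream of the transcription start site (TSS).

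Numbered *Zfp* genes held 75 of the peaks, *Zbtb* genes 18, *Zscan* genes 3 and *Zkscan* genes 2, and all of these genes were listed as protein-coding. Of the 89 genes, 9 had 2 peaks and the others had 1. The symbols did not fully match the label. *Zfp36* and *Zfp36l2*, with 3 of the peaks, encode CCCH-type proteins that bind and destabilise mRNA and are not transcription factors. In the other direction, a further 43 peaks at 30 genes of the same families, identified by gene ID in the GENCODE M21 annotation, were listed under other symbols and were not chosen by the rule. For 29 of these genes the listed symbol started with Znf, the human form. They included the genes of the promoter-binding activator ZFP143 and of ZFP687, whose strongest peaks are given with the members below.

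Sequences were read from the mouse assembly GRCm38 (mm10), and positions count from 1. The stretches shown first come from 5 of the 8 highest member peaks. Each is the run with the most CCAAT boxes within 200 bases, upstream of the listed TSS and outside annotated exons, with up to 10 further bases at each end. They are written from 5′ to 3′ on the strand of the gene, with CCAAT or its reverse complement ATTGG in capitals.
*Zbtb20*, chr16:42875763-42875858, plus strand: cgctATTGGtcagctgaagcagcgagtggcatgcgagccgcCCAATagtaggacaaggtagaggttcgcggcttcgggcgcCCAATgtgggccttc
*Zfp869*, chr8:69717022-69717210, minus strand: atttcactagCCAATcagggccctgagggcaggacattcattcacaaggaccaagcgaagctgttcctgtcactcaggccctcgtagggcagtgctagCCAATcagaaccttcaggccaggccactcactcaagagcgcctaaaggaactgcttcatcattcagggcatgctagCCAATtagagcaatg
*Zbtb3*, chr19:8802280-8802486, plus strand: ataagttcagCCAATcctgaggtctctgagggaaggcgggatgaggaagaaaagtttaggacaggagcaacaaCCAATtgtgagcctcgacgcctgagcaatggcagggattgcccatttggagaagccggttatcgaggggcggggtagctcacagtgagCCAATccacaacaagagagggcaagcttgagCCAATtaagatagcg
*Zfp446*, chr7:12977793-12977839, plus strand: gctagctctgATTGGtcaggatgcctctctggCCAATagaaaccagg
*Zfp868*, chr8:69625571-69625621, minus strand: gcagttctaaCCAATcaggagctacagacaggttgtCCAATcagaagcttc
The stretch of *Zbtb20* holds 3 of the 9 boxes in its peak, that of *Zfp869* 3 of 5 and that of *Zbtb3* all 4. In *Zfp869*, the letters ctag precede each of the 3 boxes shown.

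The next sequences are boxes with 12 bases to either side from promoter peaks of numbered *Zfp* genes, written in the direction of the box, with CCAAT in capitals. They are shown because they resemble each other across genes, and each matches at least 1 box of another member gene at 23 or more of its 29 bases.
*Zfp938*, chr10:82241329-82241357, minus strand: aagcctcactagCCAATcagggactccag
*Zfp959*, chr17:55892000-55892028, plus strand: atgcctcactagCCAATcacggcctccag
*Zfp119a*, chr17:55879015-55879043, minus strand: attccttactagCCAATcacggccgcatg
*Zfp958*, chr8:4613093-4613121, plus strand: aagactcattggCCAATcaggttctccag
*Zfp950*, chr19:61140856-61140884, minus strand: aagactcactggCCAATcagaggcttcag
*Zfp120*, chr2:150136724-150136752, minus strand: cagattcactagCCAATcaggacatccag
*Zfp964*, chr8:69654397-69654425, plus strand: gtcgggccctagCCAATcagggcctccag
*Zfp963*, chr8:69749999-69750027, minus strand: gggcggacctagCCAATcagggccttcaa
*Zfp869*, chr8:69717096-69717124, minus strand: gggcagtgctagCCAATcagaaccttcag
*Zfp868*, chr8:69625595-69625623, minus strand: gagcagttctaaCCAATcaggagctacag
*Zfp68*, chr5:138619778-138619806, minus strand: gttgagaagtgtCCAATcagacacacaga
*Zfp599*, chr9:22259964-22259992, minus strand: aacgacaaatgtCCAATcagacacacaga
*Zfp872*, chr9:22188080-22188108, plus strand: cgcgctagctgtCCAATcagggacgccgg
*Zfp563*, chr17:33089492-33089520, plus strand: acggccagctgtCCAATcaggaacgccgg
*Zfp799*, chr17:32830260-32830288, minus strand: tgtgtgaactgcCCAATgaggagtttcgg
*Zfp81*, chr17:33358880-33358908, minus strand: tgcatgaactgcCCAATgaggagcatgga

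Levels are normalised reads per peak, that is reads scaled by the authors to a common library size and rounded to whole numbers. They are not corrected for the length of the peak, so some comparisons between peaks are also given per kb. The strongest member peak lay at *Zbtb20*, which encodes a repressor known from hippocampus and liver. In the order of replicates 1, 2 and 3, which is kept below, it held 641, 765 and 649 normalised reads. Its mean was 685 ± 69.4 (SD, n = 3 libraries), rank 5 among all 9056 peaks. The *Zbtb5* peak held 402, 375 and 423 normalised reads and the *Zfp869* peak 347, 395 and 416. The *Zbtb3* peak followed with 256, 266 and 281 normalised reads, with a mean of 268 ± 12.6 (SD, n = 3). Values of *Zbtb20* lay above those of *Zbtb5* and *Zfp869* in every library, and those of *Zbtb3* below them, whereas *Zbtb5* and *Zfp869* overlapped. Per kb of peak, the 4 kept their order, with 723 ± 73.3 normalised reads per kb for *Zbtb20*, 631 ± 38 for *Zbtb5*, 614 ± 56.2 for *Zfp869* and 432 ± 20.3 for *Zbtb3* (SD, n = 3). *Zfp691* came next on this scale, with 402 ± 71.2 normalised reads per kb (SD, n = 3), a spread that reached into that of *Zbtb3*. The gene start of 4932412D23Rik also lay within 1000 bp of the *Zbtb20* peak and that of 1700055D18Rik within 1000 bp of the *Zbtb5* peak.

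**Figure D1:**
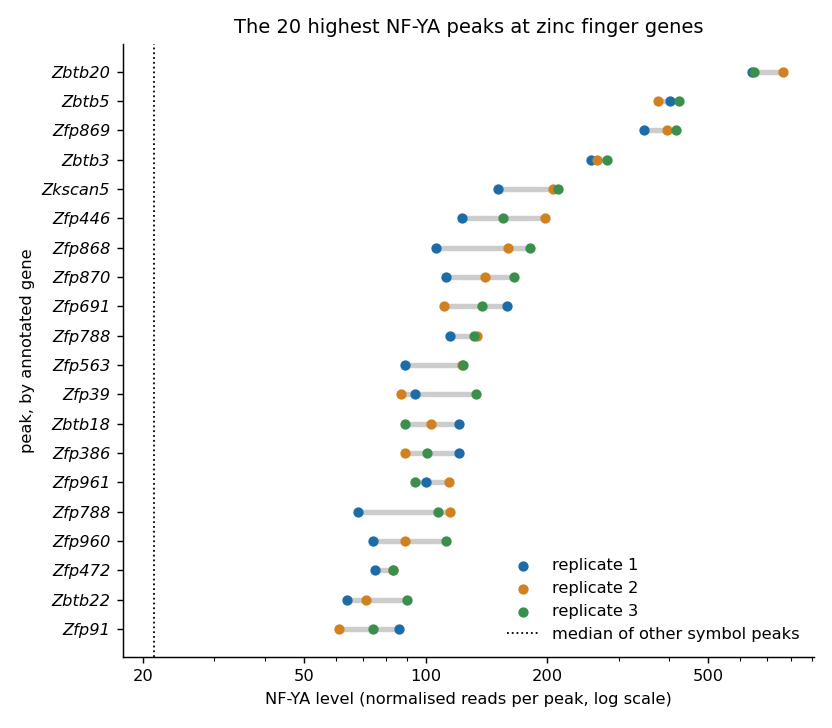
NF-YA level in normalised reads per peak (log scale) of the 20 highest member peaks, 1 row per peak named by its listed gene, with points for the 3 NF-YA libraries and a grey line from the lowest to the highest. The *Zbtb20* points sit between 641 and 765, and every point lies to the right of the dotted line, the median of the other peaks with a symbol at 21.3 normalised reads.

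Among the 20 highest peaks, 14 belonged to numbered *Zfp* genes and 5 to *Zbtb* genes, and all 20 were centred within 1000 bp of the listed TSS. For the stronger *Zfp869* peak, GENCODE M21 had no transcript start of any gene within 1000 bp, so its promoter location rests on the listed TSS only. The *Zkscan5* peak held 151, 207 and 212 normalised reads, while *Zkscan16*, the other member of this group, was near the limit of detection with 7, 6 and 0. The highest *Zscan* peak, at *Zscan2*, reached 62, 55 and 65 normalised reads, above *Zscan20* with 25, 22 and 16 and *Zscan22* with 11, 6 and 16. The *Zscan2* values did not overlap with those of the other *Zscan* genes. *Zfp446*, *Zfp868* and *Zfp870* held means of 158 ± 37.1, 149 ± 38.7 and 139 ± 26.5 normalised reads (SD, n = 3), and their ranges overlapped. *Zfp691* held 159, 111 and 138 normalised reads. *Zfp788* carried a pair of peaks 90 bases apart, with 115, 134 and 132 normalised reads in the one downstream of the TSS and 68, 115 and 107 in the one upstream. The remaining peaks among the 20 highest lay at *Zfp563*, *Zfp39*, *Zbtb18*, *Zfp386*, *Zfp961*, *Zfp960*, *Zfp472*, *Zbtb22* and *Zfp91*, with means from 73.7 to 112 normalised reads.

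The 18 *Zbtb* peaks spanned the whole range of levels. *Zbtb22*, next to the antigen presentation gene *Tapbp*, held 64, 71 and 90 normalised reads at its TSS and 33, 28 and 28 at a second peak beyond the gene. *Zbtb9* held 73, 68 and 68 normalised reads, the smallest spread of the *Zbtb* promoter peaks above the median. *Zbtb43* was low and even, with 13, 12 and 12 normalised reads at an intronic peak, while *Zbtb46*, which encodes a marker of classical dendritic cells, held 15, 4 and 15 at its TSS. By the medians of the groups, *Zbtb* peaks reached 32.5, 34 and 43 normalised reads and numbered *Zfp* peaks 30, 28 and 25. The log2 ratio of these medians was 0.39 ± 0.35 (SD, n = 3 libraries), a difference about as large as its spread.

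In most of the 9 genes with 2 peaks, 1 of them was clearly the stronger. *Zfp869* held 12, 21 and 22 normalised reads at its second peak, far below its first. *Zfp39* held 94, 87 and 133 normalised reads upstream of the TSS and 8, 3 and 3 farther away. *Zfp324*, in contrast, held 32, 18 and 19 at its TSS and 11, 22 and 15 at a peak 3837 bp upstream, and these values overlapped. *Zfp810* held 43, 22 and 28 normalised reads near its TSS and 5, 4 and 5 at the other peak. Among the genes with 2 peaks, values of the pair overlapped or met in *Zfp324*, *Zfp788* and *Zbtb46*, and did not in the others.

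The weakest member peaks were close to what 3 reads give, which is 1.99, 4.43 and 3.06 normalised reads in replicates 1, 2 and 3. The *Zfp658* peak held 5, 0 and 5 normalised reads, the second *Zbtb46* peak 5, 4 and 1 and the second *Zbtb7a* peak 4, 1 and 6. *Zfp3* held 5, 4 and 4 normalised reads and the second *Zfp36l2* peak 7, 4 and 2. In at least 1 library, 11 of the 98 peaks were at or below the floor of 3 reads, and 0 were so in every library. By library, 0, 9 and 5 peaks were so in replicates 1, 2 and 3. These peaks lie too low to be ranked against each other.

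Genes with a known role were looked up by gene ID under any symbol, and 16 of 38 had a peak (42.1%, 27.9% to 57.8%), compared with 19% of all protein-coding genes. This list was chosen by hand, with earlier results of these data known. Its share and interval therefore describe these genes only and are no estimate for a wider set. *Zbtb18*, which encodes a transcriptional repressor required for cortical development and myogenesis, held 121, 103 and 89 normalised reads at a peak centred 336 bp upstream of the TSS. *Zbtb7a*, which encodes the repressor LRF, held 72, 44 and 45 normalised reads at an intronic peak, and *Zbtb7b*, which encodes the T cell lineage factor ThPOK, held 47, 40 and 50. Levels of *Zbtb10*, *Zbtb40* and *Zbtb48*, the last encoding a telomere-binding protein, had means of 34.7 ± 8.33, 21 ± 3.46 and 15.3 ± 3.79 normalised reads (SD, n = 3). The peak at *Zfp91*, which encodes a ubiquitin ligase, held 86, 61 and 74 normalised reads. *Zfp809*, which encodes a KRAB protein that silences retroviral DNA, held 26, 16 and 16. The mRNA decay genes *Zfp36* and *Zfp36l2* held 29, 30 and 30 and 31, 13 and 30 normalised reads at their strongest peaks. No annotated peak was listed for *Zfp57*, *Zfp148*, *Zfp423*, *Zfp521*, *Zbtb16*, *Zbtb17*, *Zbtb33* and the remaining genes of this list.

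Of the family genes listed under other symbols, *Zfp687* had the strongest peak, with 283, 303 and 336 normalised reads. *Zfp143* followed with 234, 228 and 262 normalised reads at a peak centred 335 bp from the TSS. *Zfp207*, which encodes a kinetochore protein, was low with 15, 28 and 14, and *Zfp281* held 13, 0 and 7 normalised reads. *Zfp568*, which encodes a KRAB repressor of a placental *Igf2* promoter, held 11, 24 and 14 normalised reads at a peak 9992 bp from its TSS. Its second peak, 2066 bp from the TSS, held 16, 13 and 15, and these values overlapped with those of the first. The 43 peaks had a median of 16.3 normalised reads. Within 1000 bp of the TSS lay 28 of the 43, compared with 68.4% of all peaks with a symbol. CCAAT lay within 50 bp of the centre in 22 of the 43, compared with 59.1%. Both shares of these 43 peaks were below those of all peaks with a symbol.

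The location of the members was then determined. Of the 98 peaks, 82 (83.7%, 95% Wilson interval 75.1% to 89.7%) were centred within 1000 bp of the listed TSS and are called promoter peaks, compared with 68.4% of all peaks with a symbol. Among numbered *Zfp* genes the share was 89.3% (67 of 75, 80.3% to 94.5%), and among *Zbtb* genes 61.1% (11 of 18, 38.6% to 79.7%). The peak itself covered the TSS in 59 cases, and no share over all peaks with a symbol is given for this. By their centres, 75 peaks lay upstream of the listed gene, 14 in a UTR, 6 in introns and 1 in a coding exon, that of *Zfp446*. Of the 16 peaks farther from the listed TSS, 3 lay within 1000 bp of another annotated transcript start of the same gene, the stronger peak of *Zbtb7a* and those of *Zbtb7b* and *Zfp119b*. The others included a peak in an intron of *Zbtb43* and a peak upstream of *Zbtb32*, which encodes a repressor of lymphocytes, with 25, 46 and 42 normalised reads. A transcript start of another gene lay within 1000 bp of 20 member peaks (20.4%, 13.6% to 29.4%), compared with 25.1% of all peaks with a symbol. For these the listed gene is a choice between neighbours. An example is *Zbtb37*, with 5, 27 and 27 normalised reads, where the start of the noncoding RNA gene *Gas5* also lay within 1000 bp. Replicate 1 was far below the other libraries at this peak.

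Levels were first compared with those of the other 5048 peaks with a symbol. The median member peak held 30.5, 28 and 28 normalised reads, against 21, 22 and 22 for the other peaks. The log2 ratio of the medians was 0.54, 0.35 and 0.35, with a mean of 0.41 ± 0.11 (SD, n = 3 libraries). Within promoter peaks it was 0.05, 0.16 and −0.07, a mean of 0.05 ± 0.11, so the direction differed between libraries and no difference beyond the spread was seen. Per kb of peak, the log2 ratio within promoters was 0.13 ± 0.03 (SD, n = 3), with 131 normalised reads per kb in members and 122 in others. Of the members, 30 (30.6%, 22.4% to 40.3%) had a mean of at least 59 normalised reads, the upper quartile, compared with 25.2% of all peaks with a symbol, and that background lies inside the interval. Member promoter peaks were higher than the 16 member peaks elsewhere in all 3 libraries, with a log2 ratio of medians of 1.10 ± 0.29 (SD, n = 3). No test was made of these ratios, since peaks are not replicates and an exact sign-flip test over 3 libraries cannot give a p-value below 0.25.

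**Figure D2:**
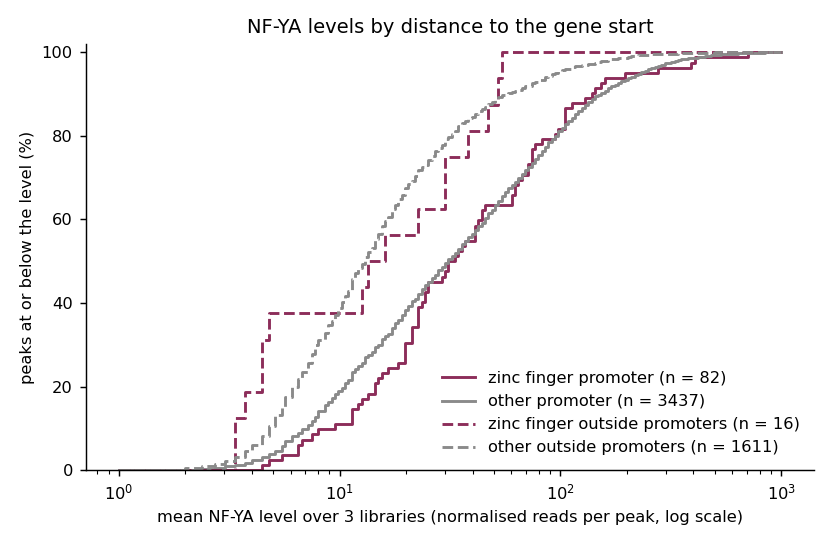
Share of peaks (%) at or below a mean NF-YA level in normalised reads per peak (log scale), for 82 zinc finger and 3437 other promoter peaks (solid lines) and 16 zinc finger and 1611 other peaks outside promoters (dashed lines). The solid lines run close together around medians of 32 and 30.7 normalised reads, and both dashed lines lie to their left.

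The CCAAT box was searched on both strands. Within 50 bp of the peak centre it was present in 75 of 98 member peaks (76.5%, 67.2% to 83.8%), compared with 59.1% of all peaks with a symbol. In promoter peaks the shares were 76.8% (63 of 82, 66.6% to 84.6%) and 65.4%, and away from promoters 75% (12 of 16, 50.5% to 89.8%) and 45.3%. Weak member peaks carried the box nearly as often as strong ones, with 73.5% (36 of 49, 59.7% to 83.8%) below and 79.6% (39 of 49, 66.4% to 88.5%) above the median level, whereas over all peaks with a symbol the shares below and above their median were 45.0% and 73.1%. The difference between these differences was not tested. The longer consensus RRCCAATSR was found within 50 bp in 39.8% of members (39 of 98) and in 30.2% of all peaks with a symbol. For other promoter elements searched within 100 bp of the centres of promoter peaks, the GC box GGGCGG was present in 43.9% of members (36 of 82, 33.7% to 54.7%) and in 60.8% of all promoter peaks with a symbol. The ETS core CCGGAAG was present in 13.4% and 11.7%, respectively.

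Counting boxes over the whole peak, 160 boxes were found in 85 member peaks and none in 13. The share with a box was 86.7% (78.6% to 92.1%), compared with 72.3% of all peaks with a symbol. In promoter peaks the median level was higher with more boxes, from 14 normalised reads in 9 peaks without a box to 22 in 31 peaks with 1, 40.0 in 27 with 2, 75 in 9 with 3 and 327 in 6 with 4 or more. Other promoter peaks showed 10.3, 20.7, 53.0, 92.5 and 207 normalised reads for the same classes. Peaks with more boxes were also longer, with median lengths of members of 168, 203, 281, 401 and 625 bp. Per kb of peak, the member medians were still 87.5, 110, 171, 192 and 523 normalised reads per kb, and those of the other promoter peaks 66.7, 99.6, 166, 229 and 369. The part of peak length in this order was not tested further.

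**Figure D3:**
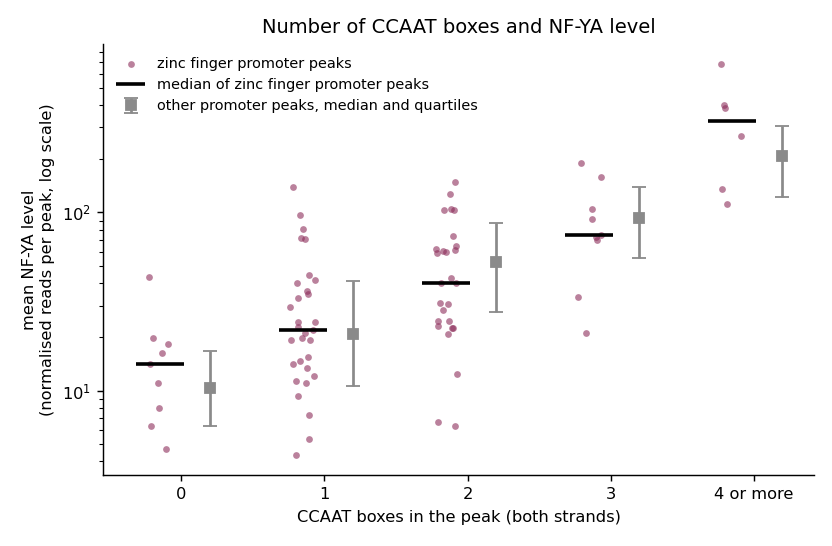
Mean NF-YA level over the 3 libraries in normalised reads per peak (log scale) against the number of CCAAT boxes in the peak, for the 82 zinc finger promoter peaks (points, black bars are medians) and the other promoter peaks (grey squares with lower and upper quartiles). The black bars step up from 14 to 327 normalised reads, and the highest class holds 6 zinc finger peaks.

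The 6 member peaks with 4 or more boxes lay at *Zbtb20* with 9, *Zbtb5* with 7, *Zfp869* with 5 and *Zbtb3*, *Zfp691* and *Zfp563* with 4 each. Not every high peak had its box at the centre. *Zfp446*, *Zfp868*, *Zfp870*, *Zfp563* and the stronger peak of *Zfp788* carried a box only more than 50 bp from the centre of the peak, as did 10 of the 19 member promoter peaks without a central box. Among member promoter peaks, those with a central box were lower than those without, by a log2 ratio of medians of −0.37 ± 0.22 (SD, n = 3 libraries), whereas among the other promoter peaks the ratio was 1.25 ± 0.15. Both values rest on the same libraries and the member value on 19 peaks without a central box. They are not per kb, and peak length differed in opposite directions. Member promoter peaks without a central box had a median length of 360 bp, against 242 bp with one. In the other promoter peaks it was 209 bp without and 274 bp with a central box. The part of peak length in this contrast was not tested. *Zfp78*, with 42, 44 and 44 normalised reads, was the highest member promoter peak without any box.

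Boxes in member promoter peaks were concentrated just upstream of the gene start. The median position of the 145 boxes was 66 bp upstream of the TSS, with quartiles at 157 and 30 bp upstream, and 84.8% lay upstream, compared with 76.7% of 5632 boxes in other promoter peaks. CCAAT was read on the strand of the gene in 93 of 145 boxes (64.1%), compared with 50.7% in other promoter peaks. Boxes of a peak share their promoter and are not independent, so no interval is given. Pairs of neighbouring boxes on the same strand were rarely 30 to 32 bp apart in members, with 2 of 51 pairs, against 281 of 2153 pairs in other promoter peaks. This holds for that narrow range only. Spacings of up to 60 bp were found in 28 of the 51 and 1254 of the 2153 pairs, and the median spacings were 53 and 51 bp.

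**Figure D4:**
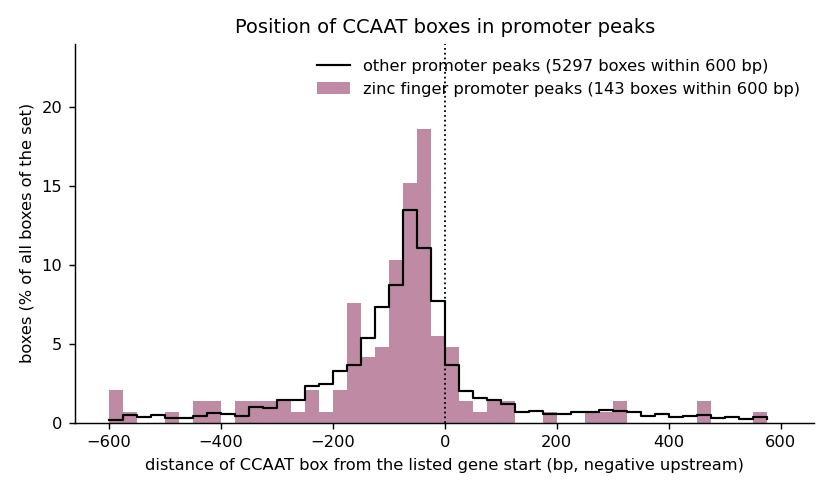
Share of CCAAT boxes (% of all boxes of the set) in bins of 25 bp by distance from the listed TSS in bp, with negative values upstream, for 143 boxes of zinc finger promoter peaks (bars) and 5297 boxes of other promoter peaks (line) that lie within 600 bp. The tallest bars of the zinc finger peaks stand within 100 bp upstream of the TSS, where the median of 66 bp upstream lies.

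Some boxes of different member genes shared the bases around them. With 12 bases to each side and CCAAT itself included, 15 of 10297 pairs of boxes from different member genes matched at 23 or more of 29 positions (0.146%), compared with 317 of 15850551 pairs from other promoter peaks (0.0020%). The pairs joined boxes of 20 genes, all numbered *Zfp* genes, and 10 of the 15 pairs joined genes on different chromosomes. Of the 21 boxes involved, 20 read CCAAT on the strand of the gene and 18 lay upstream of the TSS. The closest pair was *Zfp938* on chromosome 10 and *Zfp959* on chromosome 17, with 26 matching bases at 63 and 79 bp upstream of their TSS. *Zfp938* also matched *Zfp950* on chromosome 19 and *Zfp958* on chromosome 8 at 24 bases each. The levels of these 4 peaks were 19.7 ± 5.03, 40.3 ± 6.66, 36 ± 2.65 and 40.0 ± 2.65 normalised reads for *Zfp938*, *Zfp959*, *Zfp950* and *Zfp958* (SD, n = 3). Values of *Zfp938*, at 15, 19 and 25 normalised reads, lay below those of the other three in every library. The box followed by CA, as in most of the sequences shown, made up 39.3% of boxes in member promoter peaks (57 of 145), 44.8% in numbered *Zfp* genes (47 of 105) and 25.7% in other promoter peaks. TAGCCAAT made up 12.4% (18 of 145) and 5.18%, and 0 of the 32 boxes at *Zbtb* genes. These letters were chosen after the sequences had been seen.

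The peak table alone does not show how many genes of the families were not bound, so the share of all family genes was computed by gene ID in GENCODE M21. Of 465 protein-coding genes that fit the symbol rule, 118 (25.4%, 21.6% to 29.5%) had an annotated peak, compared with 19% of all 21938 protein-coding genes. Counting promoter peaks only, the shares were 21.7% (101 of 465) and 14.8%. *Zbtb* genes had a peak in 15 of 41 cases (36.6%, 23.6% to 51.9%), numbered *Zfp* genes in 97 of 394 (24.6%, 20.6% to 29.1%), *Zkscan* genes in 3 of 11 and *Zscan* genes in 3 of 19 (15.8%, 5.52% to 37.6%). Their intervals overlap. The authors kept uniquely mapped reads, and duplicated genes can lack unique sequence. In the window from 250 bp upstream to 50 bp downstream of the TSS, 380 of 465 family genes had at least 90% of words of 38 bases unique in the genome. A peak was listed for 27.6% of these (105 of 380) and for 15.3% (13 of 85) of the others, compared with 21.1% and 5.31% of all protein-coding genes with and without such a window.

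CCAAT was present in this window in 45.4% of family genes (211 of 465) and in 39.1% of all protein-coding genes. Family genes with the box had a peak in 40.3% of cases (85 of 211, 33.9% to 47.0%), compared with 31% of all genes with the box, and family genes without it in 13% (33 of 254, 9.40% to 17.7%), compared with 11.4%. With 2 or more boxes in the window, 62.2% of family genes (46 of 74, 50.8% to 72.4%) and 49.3% of all genes had a peak. Of the 211 family genes with the box in this window, 126 had no listed peak. Expression of these genes was not measured here.

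The share of genes with a peak was then followed along the chromosomes. A cluster was taken as a run of at least 5 family genes with starts no more than 200 kb apart, which gave 19 clusters with 168 genes, of which 35 (20.8%, 15.4% to 27.6%) had a peak, against 83 of 297 genes (27.9%, 23.1% to 33.3%) outside clusters. On chromosome 17, 8 of the 12 genes between *Zfp871* and *Zfp101* had a peak, and all 12 held CCAAT in the start window. Their levels ranged from *Zfp870*, with 112, 140 and 165 normalised reads, and *Zfp563*, with 89, 123 and 124, over *Zfp472*, with 75, 83 and 83, and *Zfp81*, with 57, 62 and 61, to *Zfp871*, with 26, 28 and 13. *Zfp101*, *Zfp952* and *Zfp799* had means of 42.7 ± 4.16, 28.3 ± 4.16 and 24.7 ± 8.96 normalised reads (SD, n = 3), and values of *Zfp952* and *Zfp799* overlapped. Of the 8 other protein-coding genes in that stretch, 1 had a peak. Next to each other on chromosome 8, *Zfp868*, *Zfp964*, *Zfp869* and *Zfp963* had peaks, 4 of the 5 genes of their cluster, with means of 149, 72.3, 386 and 41.7 normalised reads. The stretch held 2 other protein-coding genes, and 1 had a peak. A cluster on chromosome 9 also had peaks at 4 of 5 genes, *Zfp872*, *Zfp809*, *Zfp599* and *Zfp810*, with highest means of 6.67, 19.3, 12.3 and 31 normalised reads. There, 3 of the 5 other protein-coding genes had a peak too. On chromosome 7, 5 of the 8 genes from *Zfp553* to *Zfp629* had a peak, as had 6 of the 14 other protein-coding genes in that stretch. In 7 clusters no gene had a peak. The largest cluster, with 23 genes from *Zfp712* to *Zfp273* on chromosome 13, had 0 genes with a peak. A unique window was present in 19 of the 23, and CCAAT in the start window in 7 of the 23. The 7 other protein-coding genes in that stretch had 0 with a peak as well. The *Zscan4* cluster on chromosome 7 had 8 genes with CCAAT in the window and 0 with a unique window. Of the 10 genes from *Zfp989* to *Zfp933* on chromosome 4, 8 held CCAAT and 1 had a unique window. Over whole chromosomes, 18 of 51 family genes on chromosome 17 had a peak (35.3%), against 21.4% of the other protein-coding genes there. On chromosome 7 it was 25 of 107 (23.4%) against 19.3%, on chromosome 13 3 of 41 (7.32%) against 17.6%, and on the X chromosome 0 of 10 against 10.3%.

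**Figure D5:**
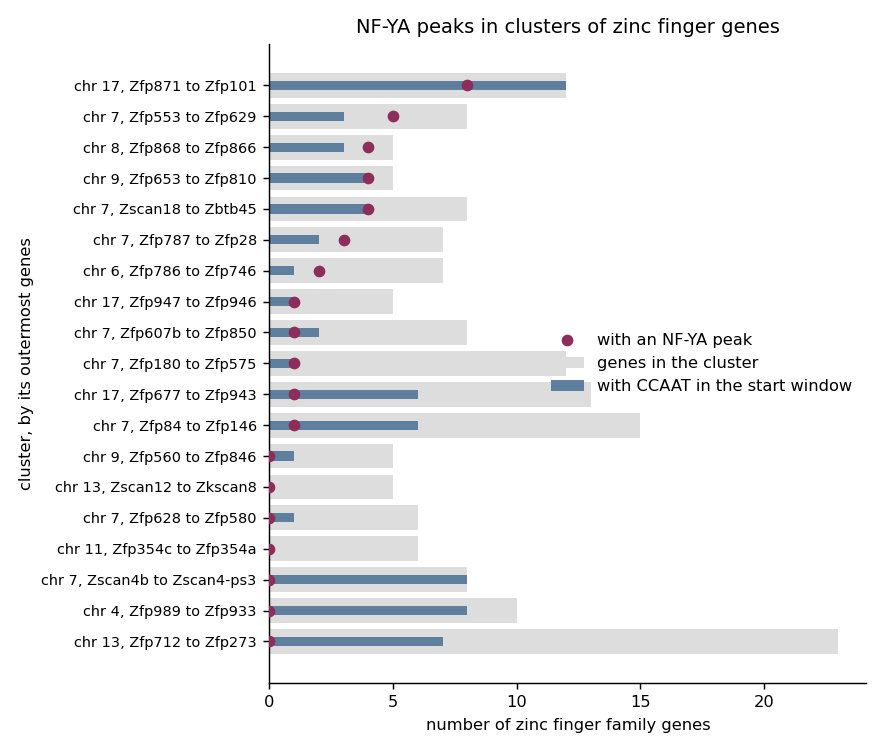
Number of zinc finger family genes (grey bars), of genes with CCAAT between 250 bp upstream and 50 bp downstream of the TSS (blue bars) and of genes with an annotated NF-YA peak (points) in the 19 clusters, each named by its chromosome and outermost genes. The top row is the chromosome 17 cluster with 8 of 12 genes bound, and the bottom row the chromosome 13 cluster with 0 of 23.

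The spread between the libraries was compared with that expected from counting. The median coefficient of variation (CV) over the 3 libraries was 18.8% for the members and 21.3% for other peaks with a symbol, and counting alone gave 15% and 16.7%. For the 20 highest member peaks the median CV was 17.3%, against 6.96% from counting. Replicate 1 was the lowest library in 13 of these 20 peaks, as it was in 45.7% of 1038 other peaks with a symbol at or above the same level. Among the 4 highest peaks, *Zbtb3* had the smallest CV, 4.70%, and *Zbtb20* the largest, 10.1%. *Zfp956* held 64, 65 and 65 normalised reads, whereas *Zfp747*, at a similar mean, held 50, 103 and 62.

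Finally, genes that work with zinc finger repressors were examined. Of 32 genes for corepressors and other cofactors, 13 had a peak (40.6%, 25.5% to 57.7%), compared with 19% of all protein-coding genes. This list was also chosen by hand, with earlier results of these data known. Its share and interval therefore describe these genes only and are no estimate for a wider set. The 13 included very weak peaks, with 3, 0 and 1 normalised reads at *Mta2* and 6, 1 and 5 at *Morc3*. The highest peak of the list was 1 of 4 at *Sin3a*, which encodes the scaffold of a histone deacetylase complex. It held 408, 498 and 583 normalised reads and lay 4067 bp from the listed TSS. *Cbx5*, which encodes the heterochromatin protein HP1 alpha, held 379, 408 and 459 normalised reads. The NuRD genes *Gatad2a* and *Gatad2b* had means of 294 ± 19.1 and 249 ± 8.33 (SD, n = 3). *Rbbp4*, which encodes a histone-binding subunit, held 88, 74 and 96 normalised reads. No annotated peak was listed for *Trim28*, the corepressor of KRAB proteins. Of 30 zinc finger genes with symbols of another form, a list chosen in the same way, 7 had a peak (23.3%, 11.8% to 40.9%). The 19% of all protein-coding genes lies inside this interval. The highest was *Maz* at 118, 108 and 105 normalised reads, followed by *Znfx1*, *Gzf1*, *Yy1* and *Mzf1* with means from 19 to 36.3. Of these, the *Znfx1* and *Gzf1* peaks lay 8898 and 1481 bp from the listed TSS.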

How the data were processed

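NF-YA CUT&RUN libraries of wild-type MuSCs were analysed from the peak table. Per the submitters' processing notes and the study's methods, the authors trimmed reads with Trimmomatic 0.39, aligned them to mm10 with STAR 2.7.9a, handled duplicates with Picard 2.25.5, called peaks with MACS2 at FDR 0.05 against IgG, unified them, counted reads with featureCounts, normalised with DESeq2 1.30.0 and listed the nearest gene with a TSS within 10000 bp. The deposited values carry the unit score, normalised reads rounded to whole numbers. No count test was therefore used. Size factors assume that the typical peak is equal in all libraries, and rounding limits the weakest peaks. Values of 1 read were estimated by maximum likelihood as 0.664, 1.48 and 1.02 normalised reads in replicates 1, 2 and 3, giving 481266, 226884 and 334579 reads in peaks. Intervals and floors cover counting error only.

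Members and lists were chosen with earlier results of these data known. Named were the 20 highest and 5 weakest member peaks, the 3 highest of each symbol group, and listed role genes, with further peaks named as examples after their values were seen. CCAAT positions, contexts and uniqueness were computed from GRCm38.p6 and GENCODE M21. The member *Zfp267* has another name in GENCODE M21. CVs from counting alone come from 20 draws of Poisson-distributed reads with the observed mean of each peak. Protein features and the IgG comparison were not analysed here. The table had 0 unassigned columns of samples. Alternatives were other distances, windows, motifs, a minimum mean of 10, a pseudocount of 1, per-kb values and leaving out each replicate. Python 3.11.15, numpy 2.4.6, pandas 2.3.3, scipy 1.17.1 and matplotlib 3.10.9 were used. On test data, 2997 of 2997 planted boxes were found and the value of 1 read differed from the true one by no more than 0.344% in 12 sets of 9056 peaks.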

Additional observations from a re-analysis of the deposited data

How the results depend on the processing

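The log2 ratio of member to other medians, 0.41 as given, was 0.075 for peaks with a mean of at least 10, 0.28 per kb of peak, 0.045 in promoter peaks and 0.27 as a difference of mean log2(value + 1). Among alternatives chosen after seeing the data it was 0.21 with family genes listed under other symbols and 0.10 with only 1 gene start within 1000 bp. It ranged from 0.35 to 0.44 when each replicate was left out. As a mean over libraries it stayed positive in all of these. For a mean of at least 10, for promoter peaks and for only 1 gene start it was smaller than its SD. These SDs were 0.115, 0.114 and 0.237 (n = 3 libraries), so no difference beyond the spread was seen there. Its size depends on which peaks are set against which, and the cause was not tested. The promoter share was 83.7% within 1000 bp and 93.9% within 5000 bp, where all peaks with a symbol reached 85.6%. The share with CCAAT was 84.7% within 100 bp and 86.7% over the whole peak, which are wider windows, and 39.8% with RRCCAATSR, which is a longer motif. All peaks with a symbol reached 71.5%, 72.3% and 30.2%, respectively. With the family genes under other symbols, the promoter share was 78.0% and the CCAAT share 68.8%, closer to the backgrounds of 68.4% and 59.1%. Without the *Zfp36* genes these shares were 84.2% and 75.8%. The share of family genes with a peak lay between 21.7% and 27.6%. The median CV of 18.8% ranged from 12.6% without replicate 1 to 17.4% without replicate 2, on fewer libraries. With 100 kb or 500 kb as the largest gap, 15 or 20 clusters were found and 5 or 7 of them had no peak. No paired analysis was possible because the table analysed holds values of the NF-YA libraries only, and the planned comparison with IgG and its replicate block was not run. Reads in peaks limit what can be said of weak members, as replicate 2 had a median of 18.9 reads per member peak.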
